A study of Mus musculus with 12 samples.

Results

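The genes described here are the V segments of the T cell receptor alpha and beta chains in mouse lymph nodes, taken as every gene of the count table whose symbol begins with Trav or Trbv. There were 163 of them among 55487 genes, of which 128 were Trav segments on chromosome 14 and 35 were Trbv segments on chromosome 6. By the GENCODE M21 annotation, 108 Trav and 22 Trbv symbols were V genes, and 20 Trav and 13 Trbv symbols were pseudogenes. RNA-seq was done on 12 lymph node libraries in 4 groups of 3. T NDE mice had B16F10 melanoma cells placed in the tongue and inhibition of the nociceptive nerves that supply the draining lymph node, and T NC mice had the tumour cells with the nerves left intact. NT NDE mice had the nerve inhibition without tumour cells, and NT NC mice had neither. The sources used here do not state strain, age, sex, the method of nerve inhibition or the day of sampling. The replicates are described as biologically independent, and the number of mice in a library is not stated. B16F10 is a mouse melanoma line, and nociceptive nerves are sensory fibres that signal pain.

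An alpha chain is built in the thymus by joining 1 of many V segments to a J segment, and a beta chain by joining V, D and J segments, after which each T cell carries its own pair. The V segment supplies part of the surface that touches the peptide and its MHC molecule, so the mix of V segments in a node describes its T cell repertoire only in outline. An expanded clone would raise the share of its V segments, although bulk RNA gives neither the J segments nor the joined sequences. Some V segments mark cells with restricted receptors, such as Trav11 in invariant natural killer T (NKT) cells and Trav1 in mucosal-associated invariant T (MAIT) cells.

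The mouse alpha locus holds repeated stretches, and the segments in the repeats carry a d or an n in their names. How alike the copies are decides which of them a short read can be assigned to, so the last 120 bases of the V exon are shown for 3 sets (GENCODE M21 transcripts, GRCm38/mm10, all on the plus strand). Capitals mark bases that differ from the first sequence of each set. The first set is a Trav7 triplet from chr14:52836268-52836387, chr14:53147329-53147448 and chr14:53531194-53531313, in the order printed.
Trav7d-5: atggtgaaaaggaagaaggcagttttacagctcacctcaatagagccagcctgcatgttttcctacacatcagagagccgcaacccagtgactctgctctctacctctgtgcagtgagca
Trav7n-5: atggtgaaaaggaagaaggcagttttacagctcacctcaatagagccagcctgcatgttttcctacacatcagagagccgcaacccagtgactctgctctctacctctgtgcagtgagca
Trav7-5: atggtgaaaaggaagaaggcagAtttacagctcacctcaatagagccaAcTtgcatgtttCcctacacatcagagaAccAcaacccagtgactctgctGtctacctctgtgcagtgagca

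Trav7d-5 and Trav7n-5 were identical over this stretch, and both were listed at 0 in all 12 libraries. Trav7-5 differed from them at 7 of 120 bases and had 334 counts in all. The second set is Trav11, the NKT segment, with its copies, from chr14:52824793-52824912, chr14:53519739-53519858 and chr14:53135558-53135677.
Trav11d: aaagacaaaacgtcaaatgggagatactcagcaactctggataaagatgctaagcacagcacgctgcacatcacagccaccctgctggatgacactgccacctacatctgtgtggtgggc
Trav11: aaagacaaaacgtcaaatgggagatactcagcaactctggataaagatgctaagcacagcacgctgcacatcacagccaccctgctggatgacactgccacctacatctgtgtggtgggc
Trav11n: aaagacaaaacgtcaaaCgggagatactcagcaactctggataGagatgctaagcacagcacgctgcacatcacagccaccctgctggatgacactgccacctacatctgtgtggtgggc

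Trav11d and Trav11 did not differ at any base of the stretch, and Trav11n, annotated as a pseudogene, differed at 2. Trav11 was listed at 0 of 13855 alpha V counts, which by counting error alone allows a share of up to 0.0217%. Trav11d had 8 counts and Trav11n 11 over the 12 libraries, so the level of the NKT segment could not be read from these counts. The third set is the Trbv13 subgroup, whose members pair with the NKT alpha chain and are frequent in conventional T cells, from chr6:41121713-41121832, chr6:41116349-41116468 and chr6:41130466-41130585.
Trbv13-2: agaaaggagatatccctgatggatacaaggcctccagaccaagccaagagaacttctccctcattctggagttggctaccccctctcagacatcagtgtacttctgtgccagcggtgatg
Trbv13-1: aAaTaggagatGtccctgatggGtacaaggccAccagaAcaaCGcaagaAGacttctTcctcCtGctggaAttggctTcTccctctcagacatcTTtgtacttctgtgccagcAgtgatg
Trbv13-3: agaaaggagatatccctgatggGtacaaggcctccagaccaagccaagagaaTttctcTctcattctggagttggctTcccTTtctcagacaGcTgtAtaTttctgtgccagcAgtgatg

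Trbv13-1 differed from Trbv13-2 at 19 of 120 bases and Trbv13-3 at 11. The 3 segments had 2827 (Trbv13-2), 1652 (Trbv13-1) and 1646 (Trbv13-3) counts over all libraries, so the beta copies were told apart by sequence in a way that the Trav7 and Trav11 copies were not.

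The same contrast held across both loci. Each transcript was divided into windows of 50 bases, and a window was called shared when it also occurred in a transcript of another gene. Of the 108 Trav V genes, 42 had over 90% of their windows shared, and these had a median of 0.167 counts per library (range 0 to 14.6), with 14 of them listed at 0 in all 12 libraries. The 8 Trav V genes with no shared window had a median of 8.54 counts per library (range 0.667 to 15). The 32 with up to 50% of windows shared had a median of 14.9, and the 26 with over 50% and up to 90% shared had 9.88. Medians were thus low only above 90%, and did not fall steadily with shared sequence. Of the 22 Trbv V genes, 17 had no shared window and none was listed at 0 in all libraries. The 2 Trbv V genes with over 50% of windows shared were Trbv4 (29 counts in all) and Trbv5 (24 counts). Their exons overlap the noncoding gene 5830405F06Rik on the same strand over 295 and 292 bases, and the part of that overlap in their low counts was not tested. The sources used here do not say how reads with several matches were counted, so values of Trav segments with d or n copies are uncertain for the single segment.

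**Figure D1:**
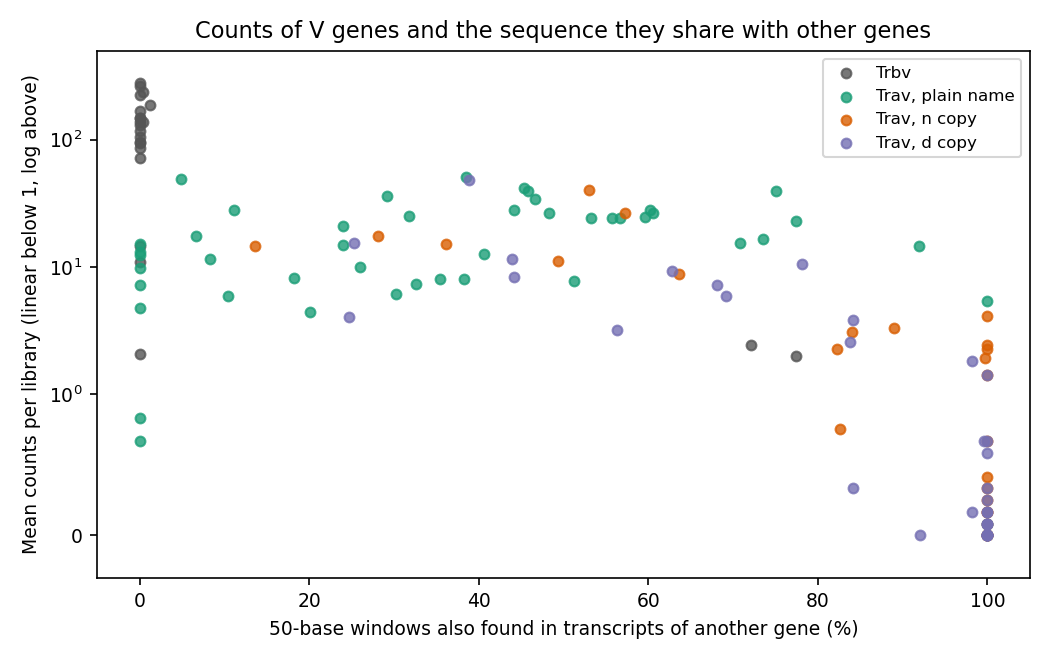
Mean counts per library (y axis, linear below 1 and logarithmic above) of the annotated V genes against the percentage of their 50-base windows that occur in another gene's transcripts (x axis). Points are genes, coloured by chain and by d, n or plain name; Trbv genes sit at the left edge apart from Trbv4 and Trbv5, and the lowest counts gather at 100%.

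Library totals ran from 16862953 to 24467873 counts, and V segments were a small part of them, with 894 to 1677 alpha and 2082 to 3978 beta counts per library. Alpha V segments took 0.00489% to 0.00713% of a library and beta V segments 0.0105% to 0.0163%. T cells were present in every library by the summed level of 8 pan T cell markers. It was 857 to 990 CPM (counts scaled to the library total) in T NDE and 994 to 1140 in T NC libraries. In NT NDE it was 900 to 989 and in NT NC 960 to 1163. The 8 B cell markers summed to 3465 to 5037 CPM in T NDE, 3856 to 4734 in T NC, 4097 to 4669 in NT NDE and 3683 to 4565 in NT NC libraries. None of these T or B cell markers was at 0 over all libraries together. 3 libraries stood apart by salivary gland transcripts, whose 11 markers summed to 40096 CPM in T NDE replicate 3, 28506 in NT NC replicate 3 and 1516 in NT NC replicate 2, against 16.8 to 65.2 in the other 9. Fitted medians and log2 fold changes below are followed by their values from a fit without these 3 libraries, in which NT NC is left with replicate 1 alone and is assumed to vary like the other groups.

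The same beta segments led in every group, while their order changed between libraries. Trbv13-2 had the highest share in 7 libraries, Trbv16 in 3 and Trbv3 in 2. Shares of a chain were computed from counts per kilobase of exon, so that long and short segments could be compared. Trbv13-2 led with 10.3% ± 1.01 of the beta V signal (SD, n = 12 libraries). Trbv16 followed with 9.78% ± 1.01, Trbv3 with 9.10% ± 0.538 and Trbv1 with 8.09% ± 0.800. Trbv12-2 had 7.16% ± 0.627 and Trbv13-3 had 6.04% ± 0.661. Neighbours in this order overlapped: the shares of Trbv13-2 ran from 8.93% to 12.4%, those of Trbv16 from 8.37% to 11.7% and those of Trbv3 from 8.21% to 9.87%. The lowest share of Trbv3 was nevertheless above the highest of Trbv12-2, 7.91%. As shares of plain counts, which favour longer exons, Trbv3 came first with 10.4%.

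From Trbv15 at 5.82% the shares stepped down to Trbv26 at 2.94%, so that 17 segments each held over 2.9% on average. After them came Trbv30 with 0.662% and Trbv23 with 0.475%, and then Trbv24 with 0.387%, which is annotated as a pseudogene. Trbv13-1 held 5.54% ± 0.885 and Trbv29, another partner of the NKT alpha chain, 4.39% ± 0.526. Trbv31 is the segment that lies beyond the constant regions in the opposite orientation and joins by inversion, and it held 4.20% ± 0.477, in the middle of the order. As plain counts, the Trbv13 subgroup made up 19.1% of beta V counts on average (range 16.3% to 22.2%) and Trbv12 11.8% (range 10.3% to 13.2%).

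**Figure D2:**
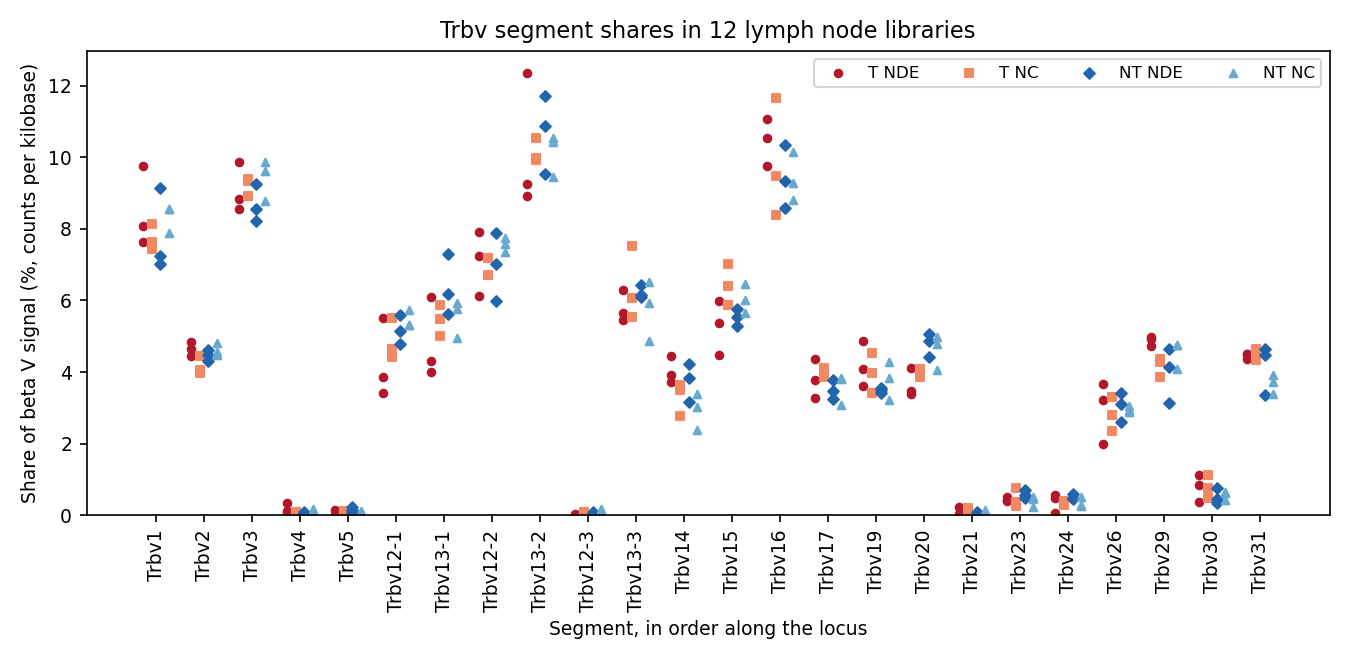
Share of the beta V signal (y axis, percent, counts per kilobase) held by each Trbv segment with at least 1 count per library on average, in order along the locus (x axis). Points are libraries, 3 per group; the tall columns at Trbv13-2, Trbv16 and Trbv3 recur in all 4 groups, and the groups interleave at most segments.

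Alpha usage was spread more evenly over many segments. The highest mean share was that of Trav13-1, 4.20% ± 0.930 of the alpha V signal (SD, n = 12), and next came Trav3-3 with 4.08% ± 0.839 and Trav14-1 with 4.0% ± 1.01. Trav14n-3 had 3.75% ± 1.12, Trav14d-3-dv8 3.56% ± 0.538 and Trav14-2 3.30% ± 0.891. All 6 ranges overlapped, from 2.91% to 6.09% for Trav13-1 and from 1.91% to 4.98% for Trav14-2, so their order is not resolved. Summed over the copies of a subgroup, Trav14 held 17.5% of alpha V counts (range 14.9% to 19.6%), Trav7 11.6% (range 9.55% to 16.0%) and Trav6 9.97% (range 7.59% to 13.3%).

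Segments with restricted roles were scarce or ordinary. Trav1, the MAIT segment, had a mean of 4.75 counts per library and a share of 0.421% ± 0.214 (SD, n = 12), and it was at 0 in T NDE replicate 3. No 50-base window of Trav1 was shared, so this low level was not subject to the copy problem. The 10 segments that can join the delta as well as the alpha chain, named with dv, held 12.5% of alpha V counts over all libraries. In single libraries they held 14.0%, 11.7% and 11.7% in T NDE, 12.6%, 12.9% and 12.1% in T NC, 12.1%, 14.8% and 11.5% in NT NDE, and 10.8%, 13.4% and 12.7% in NT NC. These groups overlapped. Among the dv segments Trav14d-3-dv8 (581 counts in all) and Trav4-4-dv10 (290) had most counts. Trav15-1-dv6-1 (209), Trav13-4-dv7 (198), Trav21-dv12 (156), Trav16d-dv11 (111), Trav15-2-dv6-2 (96) and Trav6-7-dv9 (93) followed. Trav15d-2-dv6d-2 had 2 counts and Trav15d-1-dv6d-1 was listed at 0, and 92.1% or more of the windows of both were shared.

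The part of alpha V counts held by copies with n in their names depended on single segments. Their share was 16.7%, 16.8% and 17.1% in T NDE libraries. It was 13.9%, 15% and 13.8% in T NC, 11.9%, 11.1% and 14.0% in NT NDE, and 13.3%, 9.77% and 14.2% in NT NC libraries. These T NDE values lay above those of the 3 other groups, but T NDE replicate 2 owed part of its share to 39 counts of Trav6n-7, which had 10 counts in the other 11 libraries together. Without Trav6n-7 its share was 13.4%, below every T NC library (13.8% to 15%) and inside the ranges of NT NDE (11.1% to 14.0%) and NT NC (9.77% to 14.2%), so that T NDE overlapped with each of them. Trav14n-1 had 18 of its 27 counts in T NDE replicate 2 and Trav12n-3 20 of its 23 in T NDE replicate 3. Over 99% of the windows of these 3 segments were shared with other genes. The share and the segments were chosen for mention after their values were seen and carry no test. Copies with d in their names did not separate in the same way, with 11.3%, 10.4% and 12.9% in T NDE against 13.7%, 13.1% and 11.2% in T NC libraries.

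The summed V level was lowest in T NDE nodes for both chains, without separating from T NC. All Trav segments together had 53.6, 51.7 and 48.9 CPM in T NDE, 68.5, 59.6 and 53.0 in T NC, 66.3, 58.1 and 49.3 in NT NDE, and 71.3, 53.2 and 57.2 in NT NC libraries. T NDE libraries were low, but T NDE replicate 1 lay above T NC replicate 3. All Trbv segments together had 128, 124 and 105 CPM in T NDE, 163, 150 and 124 in T NC, 138, 130 and 110 in NT NDE, and 154, 128 and 142 in NT NC libraries. Here too the groups overlapped, as T NDE replicates 1 (128 CPM) and 2 (124.04 CPM) lay above T NC replicate 3 (123.76 CPM). In bulk RNA fewer T cells in a node and less receptor RNA per T cell cannot be told apart.

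Set against the constant region of the alpha chain, Trac, the Trav signal overlapped between the groups compared. Trav counts per Trac count were 0.348, 0.324 and 0.350 in T NDE, 0.354, 0.304 and 0.330 in T NC, 0.381, 0.343 and 0.332 in NT NDE, and 0.382, 0.352 and 0.346 in NT NC libraries. Trbv counts per count of the beta constant regions Trbc1 and Trbc2 were 0.398, 0.430 and 0.409 in T NDE, 0.457, 0.411 and 0.414 in T NC, 0.424, 0.416 and 0.420 in NT NDE, and 0.440, 0.440 and 0.442 in NT NC libraries. NT NDE and T NDE lay below NT NC in this beta ratio without overlap, with mean differences of -0.0208 and -0.0281, or -0.0204 and -0.0260 without the salivary-rich libraries, and T NC overlapped with every other group. The ratio of beta to alpha V counts ran from 2.08 to 2.51 over the 12 libraries.

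**Figure D3:**
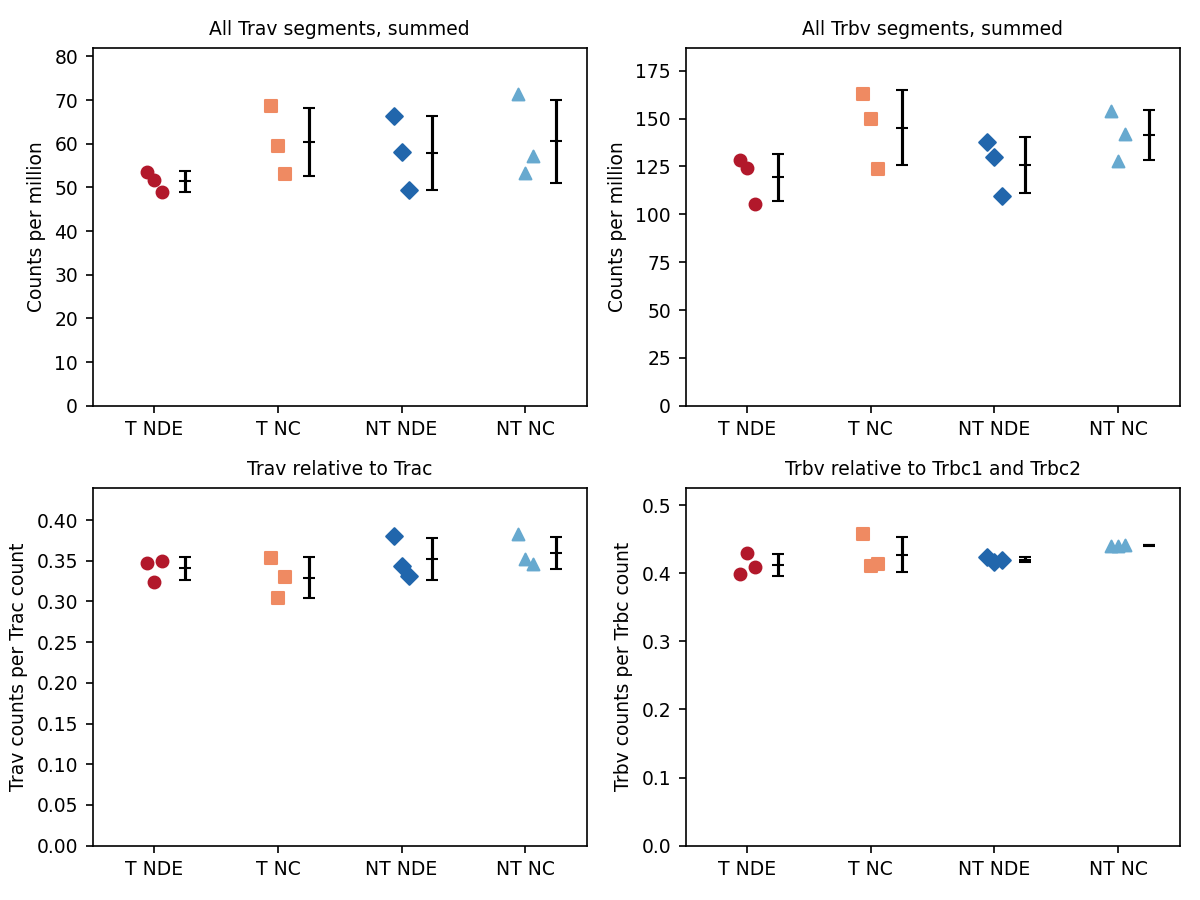
Summed Trav and Trbv levels (top, CPM of the library total) and the same counts per count of the constant regions (bottom), by group. Points are libraries, with mean and SD beside them; T NDE libraries are at the low end of the top panels (48.9 to 53.6 CPM for Trav). In the lower panels they lie among the others for Trav, and for Trbv replicates 1 and 3 are the 2 lowest of the 12 libraries (0.398 and 0.409).

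Single segments were tested with edgeR's quasi-likelihood test over the whole table, with Benjamini-Hochberg adjustment over 17301 genes that passed a filter on low counts. 50 Trav and 20 Trbv segments passed that filter, and the other 93 segments were too low to test. The levels given for a segment below are CPM scaled by TMM, a normalization factor for each library. A segment was called at an adjusted p under 0.05, and the threshold for an unadjusted p was also 0.05.

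The first comparison asked whether a tongue tumour changed V segments in nodes with intact nerves. T NC against NT NC gave 0 called segments of 70 by edgeR, with 0% called over all genes, and limma-voom likewise called 0 (0% of all genes). DESeq2 called 0 of the 64 segments it adjusted, against 0.236% of its genes. At an unadjusted p under 0.05 there was 1 segment of 70, against 7.8% of all genes, and 6 segments (8.57%) had no overlap between groups, against 15% of all genes. The median log2 fold change was 0.06 for Trav and 0.03 for Trbv segments, against -0.01 over all genes. Both medians were below 0 without the 3 libraries rich in salivary transcripts, at -0.13 for Trav and -0.08 for Trbv.

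The segment with the smallest p was Trav16n, a copy of the Trav16 subgroup, with 1.72, 1.39 and 1.72 CPM in T NC and 1.13, 0.792 and 0.859 CPM in NT NC libraries. Its T NC libraries all lay higher, with a log2 fold change of 0.80 (SE 0.28, adjusted p = 0.529), or 0.52 without the salivary-rich libraries. Trbv31 had 7.40, 7.25 and 5.92 CPM in T NC against 6.30, 5.0 and 5.15 CPM in NT NC libraries, a log2 fold change of 0.33 (SE 0.16, adjusted p = 0.659) that was 0.14 without the salivary-rich libraries. These groups overlapped. Trav8d-2 had 1.39, 0.739 and 0.888 CPM in T NC against 0.731, 0.750 and 0.303 CPM in NT NC libraries, which also overlapped, with a log2 fold change of 0.76 (SE 0.39, adjusted p = 0.663) that was 0.48 without those libraries and 0.44 with T NC replicate 1 left out.

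Most V segments had lower fitted levels with nerve inhibition in tumour-bearing mice, though none was called. T NDE against T NC gave negative log2 fold changes for 41 of 50 Trav and 19 of 20 Trbv segments, with medians of -0.22 and -0.27, against 0.01 over all genes. The medians were -0.23 and -0.27 without the salivary-rich libraries. They depended more on T NC replicate 1, without which they were -0.14 and -0.22, and on T NC replicate 3, without which they were -0.37 and -0.36. No segment was called: edgeR and limma-voom called 0 of 70 (0% of all genes with each), and DESeq2 called 0 of 70 (0.255% of all genes). At an unadjusted p under 0.05 there were 6 segments, 8.57% of those tested, against 5.83% of all genes, and 9 segments (12.9%) had no overlap, against 9.14% of all genes.

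Trbv15 had the smallest p. It had 7.13, 5.12 and 5.41 CPM in T NDE libraries, against 10.6, 8.13 and 7.40 CPM in T NC libraries. Every T NDE library was below every T NC library, and the log2 fold change was -0.57 (SE 0.17, adjusted p = 0.705). Trav14-2 had 1.43, 1.42 and 0.967 CPM in T NDE against 3.07, 2.96 and 1.78 CPM in T NC libraries, with a log2 fold change of -1.04 (SE 0.32, adjusted p = 0.705). Trav13-4-dv7, one of the segments shared with delta, had 0.878, 0.456 and 0.435 CPM in T NDE against 1.39, 1.06 and 1.07 CPM in T NC libraries, with a log2 fold change of -1.0 (SE 0.36, adjusted p = 0.803). The groups did not overlap for either. Without the salivary-rich libraries the 3 values were -0.51 (Trbv15), -0.88 (Trav14-2) and -0.82 (Trav13-4-dv7). The share of Trav14-2 within the alpha chain was likewise lower without overlap, with 2.68%, 2.76% and 1.91% in T NDE against 4.45%, 4.98% and 3.33% in T NC libraries. Trav14-2 was named for its small p from the same counts, so its share is no separate evidence. Of 40 Trav segments with a mean of at least 10 counts, 3 (7.5%) had no overlap in share here, 2 lower and 1 higher in T NDE. The share of Trbv15 within the beta chain did overlap, with 5.98%, 4.48% and 5.37% in T NDE against 7.01%, 5.87% and 6.40% in T NC libraries.

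Genes of the rest of the alpha beta receptor also had negative values in both comparisons of nerve inhibition. The 16 listed genes of the receptor complex comprise the constant regions, CD3 chains, coreceptors and proximal kinases and adaptors. All 16 had a negative log2 fold change in T NDE against T NC, with a median of -0.16. None was called, and 5 had an unadjusted p under 0.05, against 5.83% of all genes. In NT NDE against NT NC 15 of the 16 were negative, with a median of -0.12 and none called, and 3 had an unadjusted p under 0.05, against 10.4% of all genes. The medians without the salivary-rich libraries were -0.14 (T NDE against T NC) and -0.25 (NT NDE against NT NC). Trac had a log2 fold change of -0.27 in T NDE against T NC (SE 0.09, adjusted p = 0.752), or -0.23 without those libraries. The pan T cell markers also stood lower, with summed levels of 990, 978 and 857 CPM in T NDE against 1126, 1140 and 994 CPM in T NC libraries. The 6 neutrophil markers summed to 206, 129 and 141 CPM in T NDE against 218, 338 and 408 CPM in T NC libraries, which did not overlap, and to 196, 227 and 177 CPM in NT NDE against 153, 99.9 and 71.4 CPM in NT NC libraries. The part of cell content in the V levels was not tested.

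Receptor genes of gamma delta T cells, which use other V segments besides the dv segments, ran opposite. Of 12 tested genes of the gamma delta list 10 had a positive log2 fold change in T NDE against T NC. Their median was 1.47 (1.55 without the salivary-rich libraries). None was called, and 9 had an unadjusted p under 0.05 by edgeR, against 5.83% of all genes. In the interaction all 12 were positive, with a median of 1.50 and none called, and 7 had an unadjusted p under 0.05 (7.11% of all genes). In NT NDE against NT NC 9 were negative, and 0 had an unadjusted p under 0.05 (10.4% of all genes). The delta constant region Trdc, in CPM of the library total, had 53.6, 20.4 and 27.7 in T NDE against 14.9, 10.8 and 8.48 in T NC libraries, a log2 fold change of 1.57 (SE 0.36, adjusted p = 0.607), or 1.68 without the salivary-rich libraries. The T NDE libraries were all higher. In the comparison of T NC with NT NC, 12 of these 12 genes had a negative log2 fold change, with a median of -0.64. None was called there, and 5 had an unadjusted p under 0.05, against 7.8% of all genes. Without the salivary-rich libraries 11 of them did, with a median of -0.57. Of the 8 dv segments of the alpha locus that could be tested, Trav13-4-dv7 had the lowest log2 fold change in T NDE against T NC, -1.0, and Trav15-2-dv6-2 the highest, 0.62 (0.96 without the salivary-rich libraries), with none called.

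The values for nerve inhibition without a tumour depended on which NT NC libraries were kept. NT NDE against NT NC had medians of 0.01 for Trav, with 25 of 50 segments positive, and -0.19 for Trbv, with 16 of 20 negative. Without the salivary-rich libraries the medians were -0.26 and -0.28, beside the -0.23 and -0.27 of T NDE against T NC in the same fit. The only NT NC library in that fit, replicate 1, had the highest summed Trav level of all libraries. With 1 library left out at a time, the Trav median ran from -0.11 to 0.11 and the Trbv median from -0.24 to -0.10. The part of salivary content in the shift was not tested. EdgeR and limma-voom called 0 of 70 segments (0% of all genes with each), and DESeq2 called 0 of the 33 it adjusted, against 0.947% of its genes. At an unadjusted p under 0.05 there were 3 segments (4.29%), against 10.4% of all genes, and 10 segments (14.3%) had no overlap, against 18.9% of all genes.

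Trbv3 had the smallest p, with 13.1, 12.7 and 11.6 CPM in NT NDE against 15.4, 14.5 and 16.0 CPM in NT NC libraries. The groups did not overlap, and the log2 fold change was -0.29 (SE 0.11, adjusted p = 0.398), or -0.30 without the salivary-rich libraries. In T NDE against T NC, which shares no library with this comparison, Trbv3 had 12.6, 12.4 and 12.2 CPM against 17.3, 15.2 and 13.4 CPM, again without overlap. Its log2 fold change there was -0.31 (SE 0.11, adjusted p = 0.803), or -0.30 without the salivary-rich libraries. The Trbv medians given above were -0.27 (T NDE against T NC) and -0.19 (NT NDE against NT NC). The share of Trbv3 in plain beta V counts overlapped in both comparisons. It was 9.86% to 11.2% in T NDE against 10.3% to 10.8% in T NC libraries. It was 9.48% to 10.6% in NT NDE against 10.1% to 11.3% in NT NC libraries. Trav16n had 1.87, 1.23 and 1.31 CPM in NT NDE against 1.13, 0.792 and 0.859 CPM in NT NC libraries, with a log2 fold change of 0.68 (SE 0.28, adjusted p = 0.428) that was 0.39 without the salivary-rich libraries. This comparison shares its NT NC libraries with the tumour comparison above. Trav16d-dv11 had 0.312, 0.107 and 0.315 CPM in NT NDE against 0.338, 0.667 and 0.505 CPM in NT NC libraries, with a log2 fold change of -1.04 (SE 0.48, adjusted p = 0.481) that was -0.45 without the salivary-rich libraries and -0.69 without NT NDE replicate 2.

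The fourth comparison asked for the tumour effect when nerves were inhibited. T NDE against NT NDE had medians of -0.13 for Trav and -0.04 for Trbv segments, against 0.0008 over all genes. In the fit without the salivary-rich libraries they were -0.15 and 0.02. The Trav median was -0.05 without NT NDE replicate 1 and -0.33 without NT NDE replicate 3. EdgeR and limma-voom called 0 of 70 segments (0.00578% of all genes with each), and DESeq2 called 0 of the 39 it adjusted, against 0.111% of its genes. At an unadjusted p under 0.05 there were 4 segments (5.71%), against 3.7% of all genes, and 7 segments (10%) had no overlap, against 8.43% of all genes.

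Trbv20 had 4.44, 3.60 and 3.09 CPM in T NDE against 5.71, 4.83 and 4.68 CPM in NT NDE libraries, with no overlap and a log2 fold change of -0.45 (SE 0.19, adjusted p = 1.000) that was -0.33 without the salivary-rich libraries. Trav7-1 had 0.329, 0.254 and 0.435 CPM in T NDE against 0.519, 0.590 and 1.79 CPM in NT NDE libraries, a log2 fold change of -1.49 (SE 0.62, adjusted p = 1.000). It was -1.70 without the salivary-rich libraries and -0.69 without NT NDE replicate 3. Trbv13-1 had 4.72, 6.90 and 4.30 CPM in T NDE against 9.35, 7.40 and 5.68 CPM in NT NDE libraries, which overlapped, with a log2 fold change of -0.49 (SE 0.22, adjusted p = 1.000). It was -0.35 without the salivary-rich libraries and -0.30 without NT NDE replicate 1.

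**Figure D4:**
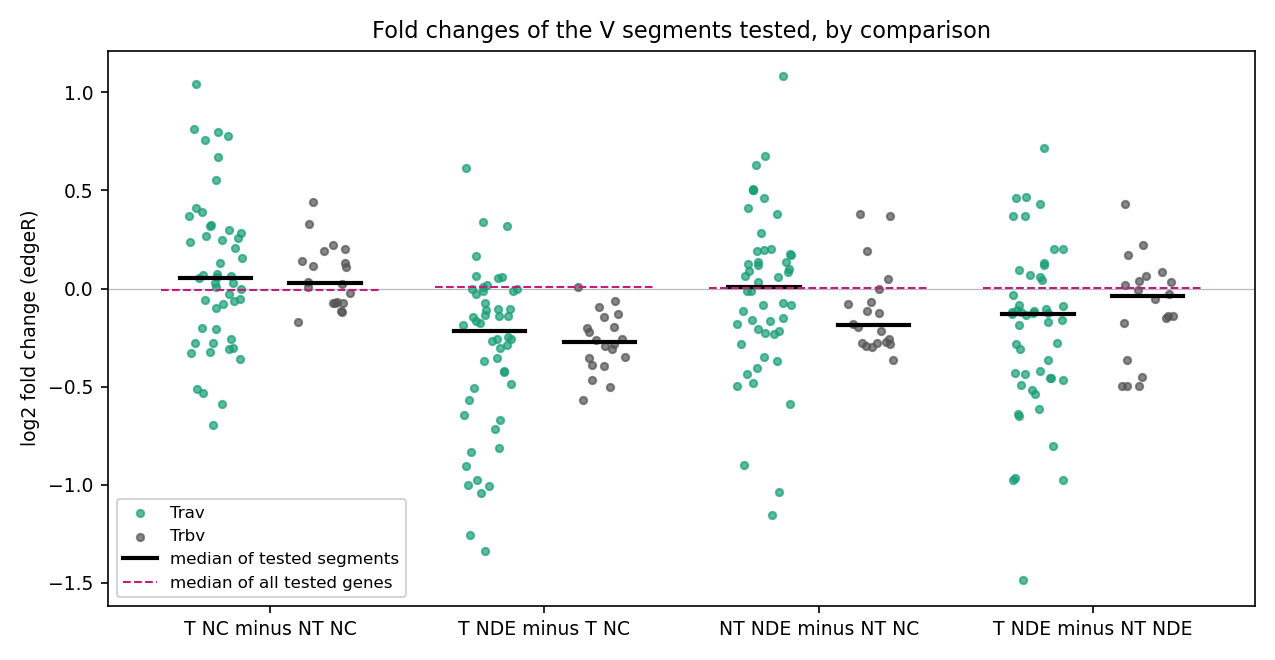
Log2 fold changes (y axis, edgeR) of the 50 Trav and 20 Trbv segments that could be tested, in the 4 pairwise comparisons (x axis). Black bars are medians of the segments and dashed lines medians of all tested genes; the Trav and Trbv medians are both below the dashed line in T NDE minus T NC, at -0.22 and -0.27.

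The interaction asked whether nerve inhibition acted differently with and without a tumour. EdgeR and limma-voom called 0 of 70 segments (0% of all genes with each), and DESeq2 called 0 of 70 (0.249% of all genes). At an unadjusted p under 0.05 there were 3 segments (4.29%), against 7.11% of all genes. They were Trav16n with a log2 difference of -0.93 (SE 0.39, adjusted p = 0.686), Trav13-1 with -0.92 (SE 0.41, adjusted p = 0.698) and Trav7-1 with -1.90 (SE 0.88, adjusted p = 0.698). Without the salivary-rich libraries they were -0.61 (Trav16n), -0.47 (Trav13-1) and -1.33 (Trav7-1), and Trav7-1 was -1.11 without NT NDE replicate 3. The median difference was -0.19 for Trav and -0.17 for Trbv segments. It was 0.0019 for Trav and 0.007 for Trbv without the salivary-rich libraries, where NT NC replicate 1 stood alone.

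The evenness of usage was summarised as the effective number of segments, the exponential of the Shannon entropy of their shares, which equals the number of segments if all were used alike. For alpha it was 53.1, 53.0 and 52.3 in T NDE, 54.8, 55.7 and 51.5 in T NC, 46.6, 55.0 and 51.3 in NT NDE, and 57.6, 53.3 and 55.5 in NT NC libraries. The groups compared overlapped in each case. The differences were -1.18 (T NDE minus T NC), -1.49 (T NC minus NT NC), -4.51 (NT NDE minus NT NC) and 1.84 (T NDE minus NT NDE), and the pooled SD within groups was 2.61. Without the salivary-rich libraries they were -0.94, -3.65, -6.67 and 2.08, in the same order. Leaving out T NC replicate 3 gave -2.40 for T NDE minus T NC and -0.27 for T NC minus NT NC. The same 2 differences were -0.34 when T NC replicate 2 was left out and -2.56 when NT NC replicate 2 was. NT NDE minus NT NC was -2.33 without NT NDE replicate 1, and T NDE minus NT NDE was -0.33 without that library and 3.86 without NT NDE replicate 2. NT NDE replicate 1 was the lowest library, and in it the first part of the locus, up to the middle segment, held 14.2% of alpha V counts against 20.1% to 25.5% in the other 11.

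Beta usage was close to constant. The effective number was 16.2, 17.1 and 17.2 in T NDE, 16.9, 16.9 and 17.3 in T NC, 17.0, 17.2 and 16.9 in NT NDE, and 16.7, 16.7 and 16.8 in NT NC libraries. T NC and NT NDE each lay above NT NC without overlap, by 0.28 and 0.29. The SD was 0.21 in T NC, 0.17 in NT NDE and 0.06 in NT NC. It was 0.56 in T NDE, and 0.31 when pooled over all 4 groups. These differences were not tested. T NDE overlapped with T NC (difference -0.20, or -0.41 with T NDE replicate 3 left out) and with NT NDE (difference -0.21, or -0.42 with it left out). By the inverse Simpson index, which gives rare segments less weight, T NC and NT NDE both overlapped with NT NC. That index was 14.94 to 15.50 in T NC, 15.14 to 15.60 in NT NDE and 14.97 to 15.35 in NT NC libraries. The 5 most used beta segments of a library held 47.5%, 45.6% and 42.8% of its beta V signal in T NDE, 43.4%, 45.4% and 43.5% in T NC, 43.8%, 42.9% and 44.4% in NT NDE, and 45.7%, 44.9% and 44.0% in NT NC. No single segment passed 12.4% in any library.

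**Figure D5:**
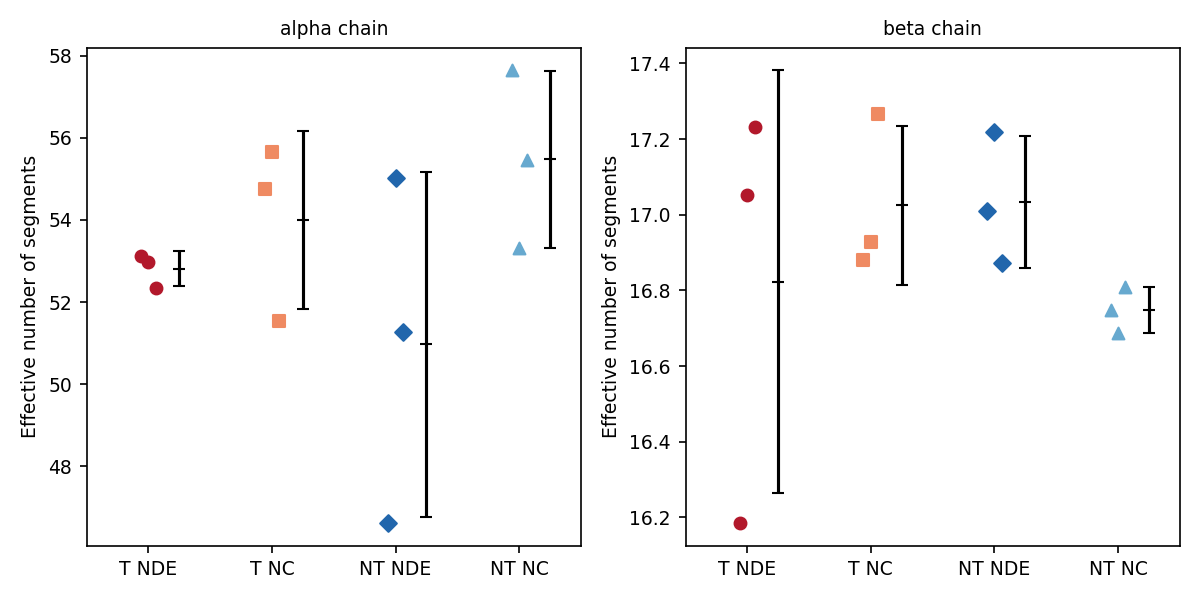
Effective number of alpha and beta V segments (y axis) by group (x axis). Points are libraries, with mean and SD beside them; alpha values run from 46.6 to 57.6 with overlap between the groups compared, and beta values from 16.2 to 17.3.

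Usage profiles overlapped to a like degree within and between groups. The overlap of 2 alpha usage profiles, as the percentage of V counts they share, had a median of 80.9% within groups (12 pairs, range 76.4% to 83.5%) and 80.9% between groups (54 pairs, range 75.9% to 85.2%). For beta the medians were 94.1% within groups (range 90.6% to 96.1%) and 93.4% between groups (range 90.3% to 96.0%). The pairs share libraries, so these values carry no test.

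Part of the difference between libraries was beyond counting. The Pearson index, the chi-square of segment by library counts divided by its degrees of freedom, would be near 1 if libraries differed by counting alone. For alpha it was 2.91 among T NDE, 1.85 among T NC, 2.26 among NT NDE and 2.57 among NT NC libraries, and 2.01 among all 12. For beta it was 2.65 among T NDE, 1.78 among T NC, 1.41 among NT NDE and 1.17 among NT NC libraries, and 1.85 among all 12. Segments with an expected count under 5 in any library compared were pooled into 1 class. For alpha this left 54 classes in T NDE, 51 in T NC, 52 in NT NDE, 58 in NT NC and 53 among all 12. The alpha index over all 12 was below that within 3 of the 4 groups. These alpha indices rest on different classes, so they cannot be set against each other directly. For beta, with 21 classes each time, the index over all 12 was below that of T NDE only. Among the 40 Trav segments with a mean of at least 10 counts Trav7-1 had the highest index, 7.85, and among the 19 such Trbv segments Trbv13-1 had, with 3.28. Rarer segments could be more uneven, such as Trav6-6, chosen after its values were seen, with 58 of its 65 counts in NT NC replicate 2. The median biological coefficient of variation in the edgeR fit was 0.267 for Trav and 0.169 for Trbv segments. It was 0.225 for other genes within the range of abundance spanned by both chains together. Those genes were not matched to the level of either chain, so 0.225 is no direct reference for one chain. Reads are not independent molecules after PCR, so the index also holds duplication, whose part was not tested.

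Genes that make or report on a repertoire were read from lists. Of 10 listed genes of V(D)J recombination, the machinery that cuts and joins the segments, 9 were tested and none was called in any of the 5 comparisons by edgeR; 2 had an unadjusted p under 0.05 in T NC against NT NC, where 7.8% of all genes did, 1 in NT NDE against NT NC (10.4% of all genes) and 1 in the interaction (7.11% of all genes). Of 15 listed genes of T cell activation and proliferation 14 were tested and none was called, with medians between -0.11 (T NDE against T NC) and 0.12 (T NC against NT NC), or -0.13 and 0.20 in these comparisons without the salivary-rich libraries, and 2 had an unadjusted p under 0.05, both in T NC against NT NC (7.8% of all genes). In the fit without the salivary-rich libraries, where NT NC replicate 1 stands alone, Mki67, a marker of dividing cells, was called in NT NDE against NT NC. Its log2 fold change was 1.01 (edgeR adjusted p = 0.0293) in that fit, against 0.31 (adjusted p = 0.690) with all libraries. Mki67 had 298, 273 and 358 CPM in NT NDE against 154, 305 and 291 CPM in NT NC libraries, so that NT NC replicate 1 was the lowest.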

How the data were processed

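The authors deposited whole-number read counts per gene for 12 mouse lymph node libraries, not normalized. Per the submitters' processing notes, HISAT2 2.0 and the mm10 build were used, whereas the sources used here do not name the counter, the annotation, the strand setting or the handling of reads with several matches. The members and gene lists were chosen with earlier results of these data known. Counts were fitted in R 4.3.3 with edgeR 4.0.16 (filterByExpr at min.count 10 and min.total.count 15, TMM factors from 0.967 to 1.01, robust quasi-likelihood fit, 1 mean per group over all 12 libraries, two-sided tests, Benjamini-Hochberg adjustment within each of 5 comparisons). The SE is the absolute log2 fold change over the square root of F. DESeq2 1.42.0 and limma 3.58.1 (voom) were alternatives. P values measure the spread between the libraries, which may be partly technical. Genes listed by ID alone made up no more than 0.0548% of any library. Shares, effective numbers and summed levels are descriptions without a test. Gene types, exon lengths and sequences came from GENCODE M21 on GRCm38/mm10, and all 163 symbols matched. Named segments were the 6 of highest mean share per chain, the 3 of smallest p per comparison, NKT, MAIT, Trbv13, Trbv31 and dv segments, and any called. The fits were tested on simulated data. Precision is limited by 894 to 1677 alpha and 2082 to 3978 beta V counts per library. Alternatives were other normalizations, filters and tools, a replicate block, left-out libraries, raw-count shares and subgroup sums.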

Additional observations from a re-analysis of the deposited data

Results flagged for a closer look

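The number of beta V segments with at least 1 count moved in opposite directions with nerve inhibition. It was 22, 23 and 24 in T NDE against 25, 25 and 26 in T NC libraries, and 24, 25 and 25 in NT NDE against 23, 22 and 23 in NT NC libraries. The differences of means were -2.33 with a tumour and 2.00 without, which are -4.33 apart. After rarefaction to a common depth of 2082 beta V counts, the differences were -1.97 and 1.84, which are -3.82 apart. This contrast was not tested. It rests on segments such as Trbv21 (25 counts in all), Trbv12-3 (17) and Trbv22 (10), which had 0 to 5 counts in a library. Trbv12-3 and Trbv22 are annotated as pseudogenes. Trbv22 was counted in every T NC and NT NDE library, in T NDE replicate 3 alone of its group and in no NT NC library.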

How the results depend on the processing

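No segment was called in any of the 5 comparisons under any of the alternative fits run, including those without each library in turn. Subgroup sums in the count fit, the medians over segments as a measure, the n-copy share without single segments, and the list medians and constant-region ratios without the salivary-rich libraries were chosen after seeing the data. Replicate numbers are not said to pair libraries. Same-numbered libraries of different groups correlated by 0.01 at the median (-0.13 to 0.52, over 0.1 in 3 of 18 pairs). Other-numbered libraries correlated by -0.002 (-0.45 to 0.34, over 0.1 in 4 of 36 pairs). The 0.52 was that of T NDE replicate 3 and NT NC replicate 3, both rich in salivary transcripts. These correlations cannot exclude a shared batch. The fit with the replicate block called 0 segments in each comparison. Without the 3 salivary-rich libraries, the median log2 fold change of Trav was -0.13 (T NC minus NT NC), -0.26 (NT NDE minus NT NC) and 0.0019 (interaction), that of Trbv 0.0070 (interaction), and the alpha effective number differed by -3.65 (T NC minus NT NC). With no filter on low counts the Trav interaction median was -0.0018. With paralogs summed, effective numbers differed by 0.054 (alpha, NT NDE minus NT NC), 0.10 (beta, NT NDE minus NT NC) and 0.28 (beta, T NDE minus NT NDE), and without pseudogenes by 0.15 (beta, NT NDE minus NT NC). Leaving out 1 library at a time, the Trav medians ran from -0.333 to -0.0538 (T NDE minus NT NDE) and from -0.44 to -0.10 (interaction). The cause of these shifts was not tested. As shares of raw counts Trbv3 held 10.4%, Trbv13-2 8.83%, Trbv13-3 5.18% and Trav14d-3-dv8 4.20%. Depth limits single Trav segments, whose mean counts per library reach 50.9 at most.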
